A study of Brachypodium distachyon with 20 samples.

Results

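In the grass *Brachypodium distachyon*, 100 genes were selected for a rise in the endosperm beside a fall in the embryo over the same stretch of grain growth. They were chosen by measured values. Among 23749 genes, 8603 had mean levels of at least 3 log2 CPM (CPM being read counts scaled to the library total) both in late endosperm (LEN) and in the transition embryo (TRA). These genes were ranked by the smaller of 2 differences, LEN minus early endosperm (EEN) and TRA minus the leaf late embryo (LEL), each on means of 2 libraries, and the first 100 were taken. EEN was collected at the TRA stage and LEN at the LEL stage, so both differences span the same interval.

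The study profiled hand-dissected grain tissues of the inbred line Bd21 by RNA-seq. The endosperm groups were LEN and EEN, the seed coat (SEC) was taken at the LEL stage, and the 7 embryo stages ran from 2-cell and quadrant embryos (TCQ) through preembryo (PEM), TRA, leaf early (LEE), leaf middle (LEM) and LEL to mature (MAT). Each of the 10 groups had 2 libraries, each from pooled embryos or grains. All groups came from plants of the same line, with emasculated and hand-pollinated flowers, and the mRNA of every sample was amplified before sequencing. No group carried a mutation or transgene. The endosperm was what was left of the grain after the seed coat and embryo were taken off, and the GEO protocol for the seed coat mentions removal of the embryo alone whereas the paper's methods mention removal of the endosperm as well.

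The grass endosperm begins as a syncytium, forms cell walls, and then fills with starch and storage protein while its cells cease to divide. The embryo meanwhile first sets up its axis, scutellum and meristems, then grows its first leaves, and finally matures and prepares for desiccation.

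The files give each gene by its identifier alone. None of these identifiers matched the 31335 genes of the RefSeq table used here, so no name, function or sequence is attached to a gene below, and the labelled tissues could not be checked against their marker genes. The 100 identifiers stand for 100 distinct loci. By the chromosome number written in the identifier, 28 lie on chromosome 1, which holds 29.5% of all genes in the table. Chromosome 2 holds 25 of the 100 and 22.8% of all genes, chromosome 3 holds 21 and 22.1%, chromosome 4 holds 12 and 16.1%, and chromosome 5 holds 14 and 9.40%. The counts followed the sizes of the chromosomes closely on chromosomes 1 to 3, and were lower on chromosome 4 and higher on chromosome 5. These shares are a description, with no test.

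Values are relative levels within a library. Library medians over all genes lay between 2.52 and 2.98 log2 CPM, and the antilogs summed to between 739963 and 1084750 CPM per library. No source used here states the read totals, and depth is therefore unknown. The median difference between the 2 libraries of a group was between 0.0736 log2 (TRA) and 0.372 log2 (EEN) for the 100 genes, and between 0.131 and 0.275 over all genes. In bulk tissue, fewer cells of a type and less RNA per cell cannot be told apart.

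Across the interval the 100 genes were a small corner of the transcriptome. Of the 8603 genes meeting the minimum level, 4128 were higher in LEN than in EEN and 4862 were lower in LEL than in TRA. Both held for 1910 of them (22.2%), whereas the opposite pair of directions, lower in LEN than in EEN with higher in LEL than in TRA, was seen for 1523. Only 179 (2.08%) moved by at least 1 log2 in both tissues in the selected directions.

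**Figure D1:**
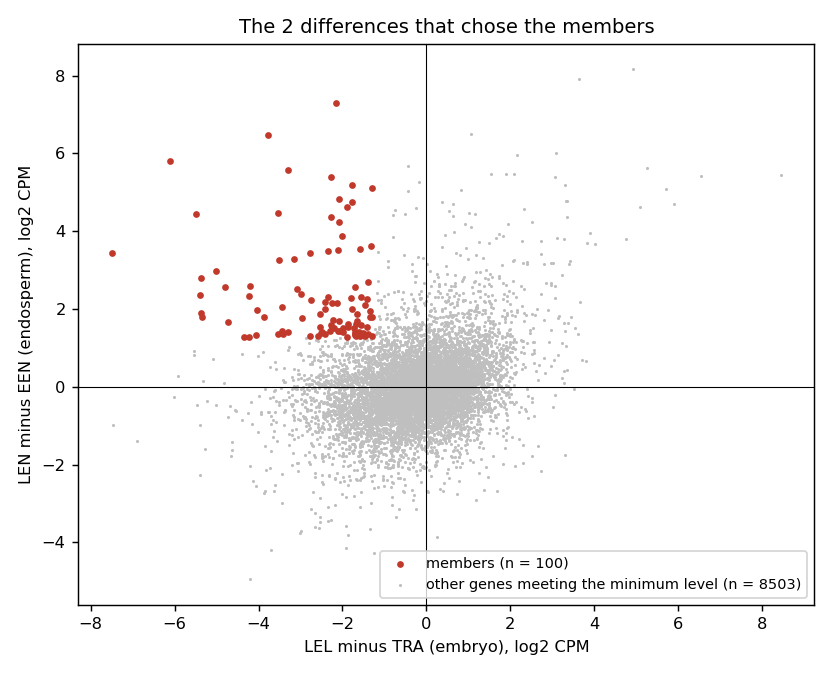
The LEL minus TRA difference in the embryo (x axis) against the LEN minus EEN difference in the endosperm (y axis), both in log2 CPM, for the 100 selected genes (red) and the other 8503 genes meeting the minimum level (grey). The selected genes fill the upper left corner, from 1.28 upwards in the endosperm and from -1.29 downwards in the embryo, because these differences chose them.

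Within the selected genes, LEN minus EEN had a median of 1.83 log2, with values between 1.28 and 7.29, against a median of -0.05 over the 8603 genes. LEL minus TRA had a median of -2.22 log2, with values between -7.50 and -1.29, against -0.17. The endosperm difference reached 2 log2 in 44 genes and the embryo difference in 60, with 31 in both. A size of 3 log2 was reached by 23 genes in the endosperm and by 28 in the embryo, with 8 in both. The endosperm side was the smaller change for 65 genes and the embryo side for 35. Large changes in both tissues at once were therefore uncommon even here.

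The gene ranked first was Bradi5g15710.3. It stood at 6.72 and 6.90 log2 CPM in LEN, against 1.10 and 0.89 in EEN, a 56.3-fold difference. It stood at 1.67 and 1.07 log2 CPM in LEL, against 7.42 and 7.53 in TRA. The level thus crossed over between the tissues, the embryo being high at the earlier time point and the endosperm at the later one. Elsewhere it had 6.61 and 7.03 log2 CPM in SEC, 7.86 and 7.94 in TCQ, 8.10 and 8.26 in PEM, 5.79 and 5.68 in LEE, 3.18 and 3.1 in LEM, and 6.52 and 6.27 in MAT. Its lowest embryo stage was LEL, and the mature embryo had returned to a level close to that of the late endosperm and seed coat.

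The gene ranked second, Bradi5g03300.1, was much scarcer. It had 4.30 and 4.46 log2 CPM in LEN, against 0.20 and -0.34 in EEN. It was at its lowest listed value, -2.30, in both LEL libraries, against 2.98 and 3.40 in TRA, so no fold is given for its embryo difference. In SEC it had -0.43 and -0.80, and in MAT -2.30 and -1.78. Unlike the gene ranked first, it stayed low in the mature embryo and in the seed coat.

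The most abundant of the 100 genes in late endosperm was Bradi1g20520.1, ranked 13. It had 10.76 and 10.68 log2 CPM in LEN, against 8.42 and 7.88 in EEN. In the embryo it had -0.30 and 0.85 log2 CPM in LEL, against 5.0 and 5.15 in TRA. Here the endosperm exceeded the embryo at both time points, and the late embryo held the gene below 1 log2 CPM.

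At the limit of the selection the differences were close to 1.28. Bradi5g20422.1, ranked 99, had 6.05 and 5.5 log2 CPM in LEN, against 4.57 and 4.42 in EEN, and 1.84 and 1.56 in LEL, against 6.08 and 5.78 in TRA. Bradi2g27050.1, ranked 100, had 3.01 and 3.68 in LEN, against 2.46 and 1.68 in EEN, and was at its lowest listed value of -0.48 in both LEL libraries, against 3.87 in both TRA libraries. Just outside, Bradi2g52670.1 and Bradi2g47260.2 both had smaller differences of 1.27, in the endosperm. Bradi2g52670.1 had 9.39 and 9.28 in LEN, against 8.11 and 8.02 in EEN, and Bradi2g47260.2 had 5.42 and 5.11 in LEN, against 3.99 and 4.0 in EEN. Nothing but the threshold separates the genes on its sides.

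Among the 4 groups of the selection, libraries lay furthest apart in EEN. Both LEN libraries lay above both EEN libraries in 97 of the 100 genes, where 37.8% of the genes meeting the minimum level did so. Both LEL libraries lay below both TRA libraries in 100, where 51.4% did so. The selection used these libraries, so nothing is read from the counts. The 3 genes with overlap in the endosperm, named after their values were seen, were Bradi3g34787.2 (6.73 and 3.43 log2 CPM in LEN, against 5.43 and -0.02 in EEN), Bradi2g01990.1 (5.47 and 2.22, against 3.37 and 0.40) and Bradi3g19630.1 (4.69 and 2.23, against 3.88 and 0.40), with values in library order. In each of these, replicate 1 was above replicate 2 in both endosperm groups. The 2 LEN libraries were over 1 log2 apart in 3 genes, the EEN libraries in 12, the LEL libraries in 5 and the TRA libraries in 0.

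Lists picked on single libraries were read in the others. When 100 genes were picked on replicate 1 alone and read in replicate 2, 98 were higher in LEN than in EEN, 100 were lower in LEL than in TRA, and 98 did both, with median differences of 1.81 and -2.20 log2. When they were picked on replicate 2 and read in replicate 1, the counts were 98, 99 and 97, with medians of 1.56 and -1.91. The 2 lists shared 55 genes, and 75 and 76 of the 100 selected genes were in them. These lists are therefore not the 100 genes, and they come from the same 4 groups, where 22.2% of the genes meeting the minimum level moved in both directions. This reading repeats the differences that picked the genes, in the other library of the same groups. Nothing is therefore read from its counts. It was added after the data were examined.

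The selected genes tended to swap their order between the tissues, as far as the selection allows. At the earlier time point 88 were higher in TRA than in EEN, with a median difference of 2.01 log2 and values between -3.95 and 8.94. At the later one 92 were higher in LEN than in LEL, with a median of 2.31 and values between -2.35 and 10.44. Both held for 80 genes, of which 70 showed no overlap of libraries in either comparison (14.7% of the genes meeting the minimum level), and 1826 of the 8603 genes meeting the minimum level (21.2%) had the same 2 orders. Because the selection used all 4 groups, nothing is read from these counts.

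The 12 genes lower in TRA than in EEN had medians of 8.51 log2 CPM in LEN, 5.88 in EEN, 1.82 in LEL and 3.98 in TRA. The 8 genes lower in LEN than in LEL had medians of 4.71 in LEN, 1.70 in EEN, 4.78 in LEL and 8.23 in TRA. No gene was in both sets. Levels varied within both sets, with LEN means between 4.90 and 10.72 in the 12 genes and TRA means between 5.24 and 9.41 in the 8 genes.

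**Figure D2:**
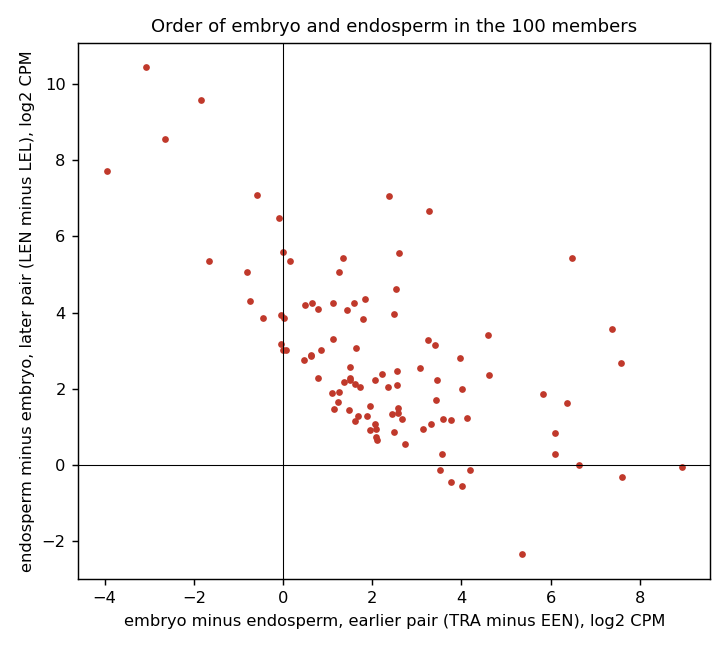
TRA minus EEN at the earlier time point (x axis) against LEN minus LEL at the later one (y axis), in log2 CPM, with a point for each of the 100 genes. In the upper right quadrant, with the embryo higher first and the endosperm higher later, lie 80 genes. The empty lower left corner follows from the selection, which fixes the least sum of the 2 axes.

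Single genes show how far apart the tissues could be, in part by the selection, which favoured low EEN and LEL with high TRA and LEN. The EEN level was as low as 0.204% of the TRA level, and under 1% of it in 5 of the 100 genes. The LEL level was as low as 0.0719% of the LEN level, under 1% in 7 genes and under 5% in 18. Bradi4g08500.2 was at 11.81 and 11.75 log2 CPM in SEC but at 3.1 and 3.29 in LEN, and the LEN level was 0.260% of the SEC level. Of these, the SEC libraries had no part in the selection. LEN was higher than SEC in 61 of the 100 genes and lower in 39, with a median difference of 0.55 log2. The selection favoured a high LEN, and no share over the genes meeting the minimum level was counted, so nothing is read from these counts. Carry-over of RNA between tissues in dissection was not tested here. The paper examined genes typical of endosperm and seed coat in its embryo samples, and concluded that contamination of these samples was minimal.

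Across all 10 groups, what the 100 genes shared in the embryo was the fall between TRA and LEL, which the selection set. Their median level was 5.08 log2 CPM in LEN, 2.70 in EEN and 4.60 in SEC. In the embryo the medians were 4.89 in TCQ, 5.36 in PEM, 4.98 in TRA, 4.50 in LEE, 2.83 in LEM, 2.40 in LEL and 2.62 in MAT. Over the 8603 genes meeting the minimum level, the medians lay between 5.07 in SEC and 5.36 in EEN. Only in PEM was the median of the list above that of these genes (5.23), and LEN and TRA had been required to be at least 3. The list differed from the genes it was drawn from mainly by its low levels in EEN, LEM, LEL and MAT. Of these, EEN and LEL are low by the selection. LEM lies within the interval of the selected fall and MAT follows LEL, so their levels are not independent of the selection.

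**Figure D3:**
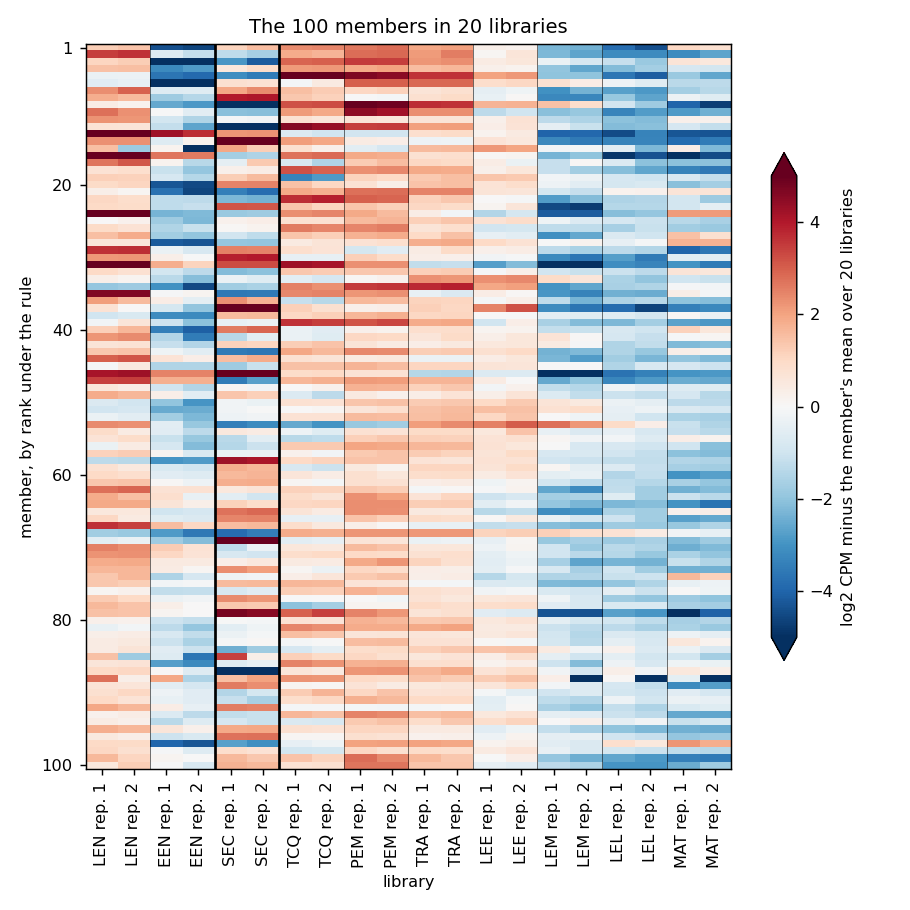
Log2 CPM of each of the 100 genes (down the page, by rank) in each of the 20 libraries, minus that gene's own mean over the libraries, with LEN, EEN and SEC left of the 7 embryo stages in developmental order. The columns turn from red to blue between LEE and LEM in the embryo, the EEN columns are mostly blue beside LEN, and the SEC columns are red in some genes and blue in others. The selection set LEN above EEN, and LEE and LEM lie within the interval of the selected fall.

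The highest of the 10 groups was PEM for 32 genes, SEC for 24, LEN for 21, TCQ for 14, LEE for 5 and TRA for 4, and it was LEM or MAT for 0. EEN and LEL could not be highest, since the selection put LEN above EEN and TRA above LEL in every gene. Within the embryo alone, PEM was highest for 52 of the 100 genes, against 16.1% of all genes. TCQ was highest for 28, against 20.9%, TRA for 13, against 7.80%, and LEE for 7, against 8.18%. LEM and MAT were highest for 0, against 10.7% and 27.5%, and LEL could not be. TRA, which the selection required to be high, was thus the peak of few of the genes, since 75 were higher in PEM than in TRA. LEN was above all 7 embryo stages in 33 genes and SEC in 31. No share over all genes was counted for these 33 and 31 or for the peaks among 10 groups, so nothing is read from them.

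Of the 10 groups, 6 had no part in the selection, and 5 comparisons among them were tested with limma over 22902 genes, with p-values adjusted by Benjamini-Hochberg over all of them and called at 0.05. All 100 genes passed the filter on low levels. With 2 libraries per group, the spread behind a p-value here is that between the pools of a group, pooled over all 10 groups and moderated by limma. That spread thus also draws on the libraries of the 4 groups of the selection. While the study's methods call the pools biological replicates, no source used here says whether they were grown or dissected on separate occasions. TCQ and PEM precede the interval of the selection, LEE and LEM lie within it, and MAT follows it.

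Before the interval, the genes more often increased than decreased. In PEM against TCQ, 51 of the 100 genes were higher and 17 lower, where 28.7% of all tested genes were higher and 24.6% lower. The median difference was 0.57 log2, with values between -1.89 and 4.14, against 0.05 over all genes. PEM is the stage next to TRA, which the selection required to be high. The direction is therefore not independent of the selection, although these libraries are. The 51 higher genes had a median difference of 1.28 and the 17 lower genes one of -0.84. The count of lower genes depended on single libraries, being 11 without TCQ replicate 1 and 9 without PEM replicate 2.

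By the naming rule, Bradi2g38470.10 and Bradi1g22830.1 rose most at this step. Bradi2g38470.10 had 5.40 and 5.33 log2 CPM in PEM, against 2.63 and 2.41 in TCQ, a difference of 2.84 ± 0.31 log2 (SE; limma, adjusted p = 3.1e-06). Bradi1g22830.1 had 9.09 and 9.12 in PEM, against 6.0 and 6.58 in TCQ, a difference of 2.81 ± 0.16 (limma, adjusted p = 1.1e-08). Bradi1g22830.1 stayed at 8.99 and 8.98 in TRA and was nearly missing from early endosperm, with 5.54 and 5.69 in LEN, against 0.01 and 0.09 in EEN. The largest falls were in Bradi3g33150.1, with 7.38 and 7.4 in PEM, against 9.34 and 9.23 in TCQ (limma, adjusted p = 4.3e-06), and in Bradi5g16570.1, with 3.80 and 3.75, against 5.48 and 5.35 (limma, adjusted p = 8.1e-06). Both of these had their highest embryo level in TCQ, at the start of the series.

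From PEM to LEE, with TRA between them, most of the genes decreased. In LEE against PEM, 8 of the 100 genes were higher and 65 lower, where 24.3% of all tested genes were higher and 24.9% lower. The median difference was -1.30 log2, with values between -5.49 and 4.57, against 0.00 over all genes, and 80 genes were below 0. LEE lies between TRA and LEL, over which the genes were selected to fall. The direction is therefore not independent of the selection, although the libraries are. Of the 51 genes that were higher in PEM than in TCQ, 34 were lower in LEE than in PEM, the most frequent pair of calls. Both comparisons use the PEM libraries, with opposite sign, and 65 of all 100 genes were lower in LEE. No share over all tested genes was counted for pairs of calls, so nothing is read from the 34.

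Bradi1g35690.1 fell most, with -0.63 and -0.30 log2 CPM in LEE, against 5.15 and 4.90 in PEM, a difference of -5.49 ± 0.27 log2 (SE; limma, adjusted p = 7.7e-10). Bradi3g33150.1 fell again, with 2.34 and 2.93 in LEE, against 7.38 and 7.4 in PEM, a difference of -4.76 ± 0.22 (limma, adjusted p = 3.9e-10). This gene had thus left its high level of TCQ well before LEL, while the endosperm held 10.51 and 10.40 in LEN, against 6.93 and 6.22 in EEN. In the other direction, Bradi4g29720.1 had 8.12 and 8.62 in LEE, against 3.73 and 3.87 in PEM, a difference of 4.57 ± 0.34 (limma, adjusted p = 6.8e-08). Bradi4g09257.1 had 5.44 and 6.16 in LEE, against 3.21 and 3.29 in PEM, a difference of 2.55 ± 0.35 (limma, adjusted p = 3.2e-05). Both were late risers. Bradi4g09257.1 lost its level after LEE, whereas Bradi4g29720.1 was not called in LEM against LEE (difference -0.30 ± 0.34; limma, adjusted p = 0.50).

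Between LEE and LEM the fall extended to nearly the whole list. In LEM against LEE, 0 of the 100 genes were higher and 86 lower, where 25.0% of all tested genes were higher and 26.9% lower. All 100 differences were below 0, with a median of -1.37 log2 and values between -6.23 and -0.08, against -0.04 over all genes. None of the 100 genes was higher at an unadjusted p under 0.05 in limma, since none had a positive difference. Both stages lie between TRA and LEL, over which the genes were selected to fall, so the direction is not independent of the selection although the libraries are. Of the 86, 58 had already been lower in LEE than in PEM, and 44 had been higher in PEM than in TCQ. Over all 100 genes, 65 and 51 were so called, which are similar shares, and nothing is read from these counts.

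Bradi4g09257.1, which had risen to LEE, had -0.17 and -0.69 log2 CPM in LEM, against 5.44 and 6.16 in LEE, a difference of -6.23 ± 0.35 log2 (SE; limma, adjusted p = 5.1e-09). Bradi3g08530.1 had 2.61 and 3.0 in LEM, against 7.53 and 7.65 in LEE, a difference of -4.79 ± 0.30 (limma, adjusted p = 1.3e-08). In LEL they stood at -0.86 and -1.67 for Bradi4g09257.1 and at 3.99 and 4.08 for Bradi3g08530.1, so at these genes the low level was reached by LEM. Over the list, 99 of the 100 genes were already lower in LEM than in TRA, 62 were lower still in LEL than in LEM, and 53 decreased at every step from TRA through LEE and LEM to LEL. These counts use TRA and LEL, which chose the genes, and no share over all genes was counted. Nothing is therefore read from them.

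At maturity the calls went both ways, much as over all genes. In MAT against LEM, 37 of the 100 genes were higher and 42 lower, where 31.3% of all tested genes were higher and 33.0% lower. The median difference was -0.33 log2, with values between -5.51 and 6.29, against 0.00 over all genes. The median of the list was -0.53 without LEM replicate 2, -0.20 with a pseudocount of 1 CPM, and -0.15 with library medians set equal, when that of all genes was 0.19. The shares were thus near those of all genes. The 37 higher genes had medians of 1.95 log2 CPM in LEM, 2.58 in LEL and 4.0 in MAT, and the 42 lower genes had 3.80 in LEM, 2.77 in LEL and 2.39 in MAT. The genes that were higher in MAT thus had the lower median in LEM, a stage that both sides of this comparison use. Over the whole list 47 genes were higher in MAT than in LEL and 53 lower, 23 by at least 1 log2 upwards and 13 by at least 1 log2 downwards. LEL was selected to be low, and no share over all genes was counted for MAT against LEL, so nothing is read from these counts.

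Bradi2g38220.1, which also had the largest endosperm difference of the list, recovered most. It had 7.98 and 7.93 log2 CPM in LEN, against 0.60 and 0.72 in EEN, a 157-fold difference. It had 5.05 in both MAT libraries and was at its lowest listed value, -1.24, in both LEM libraries, so its fitted difference of 6.29 log2 depends on that value and no fold is given (SE 0.19; limma, adjusted p = 9.0e-13). In LEL it had 0.80 and 0.97, above both LEM libraries, and MAT was 4.16 log2 above LEL, so the larger step of the return followed LEL. Bradi5g15710.3, the gene ranked first, had 6.52 and 6.27 in MAT, against 3.18 and 3.1 in LEM, a difference of 3.26 ± 0.17 (limma, adjusted p = 2.5e-10).

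The largest falls to maturity were in genes that still held more than 5 log2 CPM in both LEM libraries. Bradi5g16127.1 had 0.16 and -0.55 log2 CPM in MAT, against 5.61 and 5.02 in LEM, a difference of -5.51 ± 0.26 log2 (SE; limma, adjusted p = 9.2e-11). Its endosperm levels were 4.52 and 4.34 in LEN, against 1.61 and 1.27 in EEN. Bradi4g29720.1 had 4.48 and 4.09 in MAT, against 8.35 and 7.79 in LEM, a difference of -3.79 ± 0.34 (limma, adjusted p = 1.2e-07). Its endosperm levels were 7.99 and 7.89 in LEN, against 5.08 and 3.70 in EEN.

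**Figure D4:**
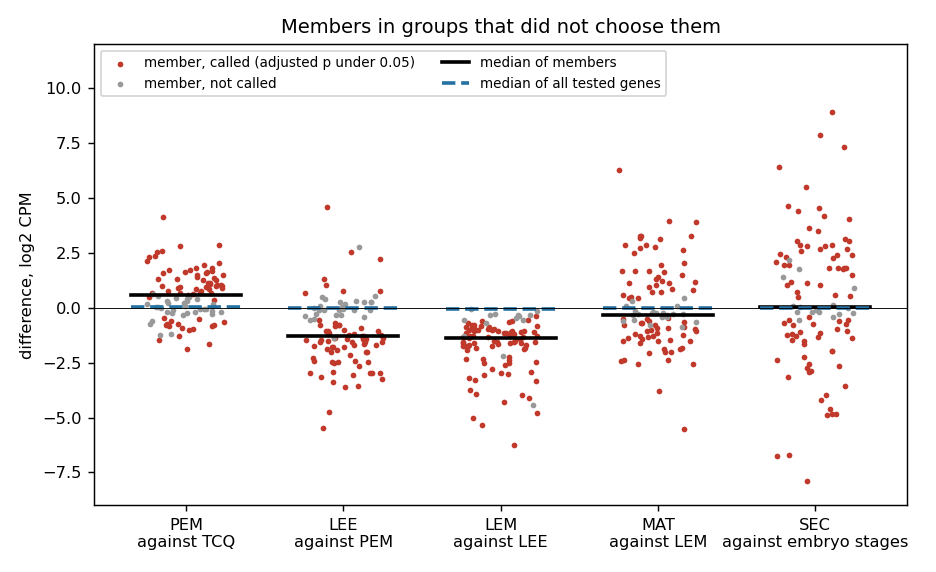
Differences in log2 CPM (y axis) of the 100 genes in the 5 comparisons among groups that had no part in the selection, red where limma called the gene at an adjusted p under 0.05 and grey where it did not, with horizontal jitter. Black bars give the median of the 100 genes and blue dashed bars the median of all tested genes, which lie at -1.37 and -0.04 in LEM against LEE but at 0.05 and -0.01 in SEC against the mean of TCQ, PEM, LEE, LEM and MAT.

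In the seed coat, too, the calls went both ways, much as over all genes. In SEC against the equal-weight mean of TCQ, PEM, LEE, LEM and MAT, 44 of the 100 genes were higher and 40 lower, where 40.3% of all tested genes were higher and 39.9% lower. The median difference was 0.05 log2, with values between -7.91 and 8.92, against -0.01 over all genes. The 44 higher genes had a median SEC level of 6.31 log2 CPM and the 40 lower genes one of 2.00. The shares were near those of all genes. With library medians set equal, the median of the list moved to -0.18 and that of all genes to -0.23, with 42 of the list higher and 47 lower. It was -0.02 with a pseudocount of 1 CPM, and leaving out single libraries gave 0.0065 (without LEM replicate 2) to 0.093 (without LEM replicate 1), all close to 0.

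Single genes differed greatly. Bradi4g08500.2 had 11.81 and 11.75 log2 CPM in SEC, and its embryo levels lay between 1.46 in a MAT library and 4.24 in a PEM library, a difference of 8.92 ± 0.14 log2 (SE; limma, adjusted p = 9.6e-17). Bradi1g25440.1 had 11.43 and 11.36 in SEC, against 6.06 and 6.15 in TCQ, the highest of the embryo stages (difference from the mean of the 5 stages 7.84 ± 0.09; limma, adjusted p = 2.2e-17). It was also abundant in the endosperm, with 9.27 and 9.36 in LEN, against 7.63 and 7.61 in EEN. At the other end, Bradi5g16127.1 had -2.62 and -2.21 in SEC (difference -7.91 ± 0.20; limma, adjusted p = 1.6e-14), and Bradi1g71377.1 had -0.35 and -0.61 in SEC, whereas its embryo levels lay between 4.74 in a LEM library and 7.80 in a PEM library (difference -6.74 ± 0.18; limma, adjusted p = 1.8e-14). Both of these were present in LEN, at 4.52 and 4.34 for Bradi5g16127.1 and at 6.57 and 6.62 for Bradi1g71377.1, so late endosperm and seed coat levels were unlike at these genes.

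The calls at maturity and in the seed coat were also counted jointly. Of the 37 genes higher in MAT than in LEM, 17 were higher and 16 lower in SEC than in the embryo stages. Of the 42 genes lower in MAT, 20 were higher and 14 lower in SEC. Of the 86 genes lower in LEM than in LEE, 36 were higher in MAT than in LEM, 35 were lower and 15 were not called. MAT against LEM and LEM against LEE both use the LEM libraries, and the SEC comparison uses those of LEE, LEM and MAT. All these counts thus share libraries. No share over all tested genes was counted for pairs of calls, so nothing is read from these counts.

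**Figure D5:**
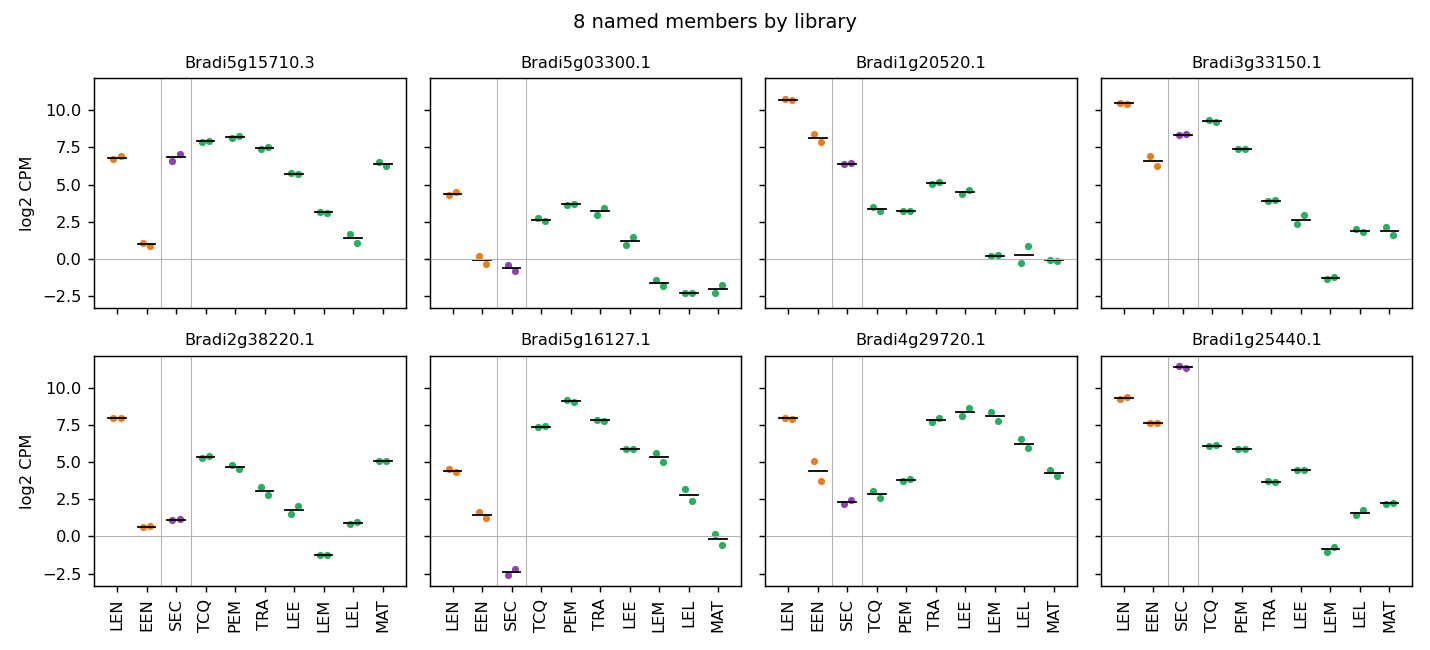
Log2 CPM (y axis) of 8 named genes in each library, with LEN, EEN and SEC left of the 7 embryo stages in developmental order. Points are the 2 libraries and bars their mean, with endosperm in orange, seed coat in purple and embryo in green. Bradi5g15710.3 and Bradi2g38220.1 are high again in MAT, Bradi5g16127.1 is lowest in SEC, and Bradi1g25440.1 is highest there.

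Lists of 100 genes made by each side of the selection alone are set beside the joint list as a description. The list ranked by LEN minus EEN alone shared 1 gene with the 100, and the list ranked by TRA minus LEL alone shared 6. The list of the mirror pattern, lower in LEN than in EEN and higher in LEL than in TRA, shared 0. In MAT against LEM, the joint list had 37 genes higher and 42 lower, against 88 and 1 for the endosperm-rise list (median 3.77 log2). In LEM against LEE the joint list had 0 higher and 86 lower, against 48 and 17 (median 0.78). The genes with the largest endosperm rise were thus mostly ones that the embryo also increased towards maturity, and the joint list was made of other genes.

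Before maturity the counts of the joint list were nearer to those of the embryo-fall list. Both lists were selected on TRA minus LEL, and the mirror list on the opposite difference, whereas the endosperm-rise list had no condition on the embryo. LEE and LEM lie in that interval, so nothing is read from the nearness at these stages. In LEE against PEM the joint list had 8 genes higher and 65 lower, against 6 and 80 for the embryo-fall list (median -2.42 log2), and in LEM against LEE it had 0 and 86, against 0 and 99 (median -3.38). In MAT against LEM it had 37 higher and 42 lower, against 6 and 68 (median -1.42). In SEC against the embryo stages it had 44 higher and 40 lower, against 33 and 64 (median -2.45). For the mirror list the count in LEM against LEE was 89 higher and 2 lower (median 1.07). These lists were made by the same kind of rule and their counts are set side by side with no test of the difference.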

How the data were processed

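RNA-seq libraries from Bd21 embryo, endosperm and seed coat were made by the authors from pooled, hand-dissected material with amplified antisense RNA. The submitters' processing notes list CASAVA and Trimmomatic for the reads, which were quantified with Salmon 0.13.0 against the JGI 3.1 annotation (1 model per gene). The authors' own tests used edgeR 3.24.3. In the deposited table each value is a log2 CPM, normalized by the authors, and the prior count behind the lowest values is not given in the sources used here. Such a lowest value, shared by at least 2 libraries (within 1e-06), is called the lowest listed value. Amplification may compress or distort levels, and its effect was not tested.

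The selection used means of 2 libraries. The selected genes, the lists and the comparisons were chosen with earlier results of these data known. The deposited log2 values were fitted in R 4.3.3 with limma 3.58.1, as 10 group means with a variance trend on level, for genes that exceeded 0 log2 CPM in 2 or more libraries (22902 tested, 847 left out, 10 residual and 4.82 prior degrees of freedom). The fit was tested on simulated data. No test was made of LEN against EEN or LEL against TRA, and none of a list. Descriptive values used Python 3.11.15 with pandas 2.3.3. Standard errors are those of the fit.

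Genes are named by these parts of a rule: ranks 1, 2 and 99 to 102, the highest LEN mean, and, in each tested comparison, the 2 largest rises and the 2 largest falls among called genes with a level of 5 log2 CPM or more in the higher group and no overlap of libraries. Alternatives were equal library medians, no filter, a pseudocount of 1 CPM, other selection minimums, ranking by the sum, a fit on 12 libraries, a replicate block and leaving out each library. Marker, keyword and promoter lists were planned but could not be applied without gene names. The study's other embryo samples were not analysed here.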

Additional observations from a re-analysis of the deposited data

How the results depend on the processing

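The directions of all named results and their calls stayed as reported under the alternatives run. Membership moved more. With a minimum of 2 in place of 3 log2 CPM, 61 of the 100 genes stayed in the list, with a minimum of 4, 61, and with ranking by the sum of both differences, 58. With equal library medians 84 stayed and with a pseudocount of 1 CPM 91. Leaving out single libraries gave 9 to 19 genes lower and 43 to 52 higher in PEM against TCQ, and 75 to 88 lower in LEM against LEE. The median LEN minus EEN was 2.17 without EEN replicate 1. Setting library medians equal moved the median of all genes by 0.19 in MAT against LEM, where 37 genes were then higher and 37 lower, and the median of the list in SEC against the embryo stages to -0.18, the other side of 0.

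Same-numbered libraries deviated together with correlations of -0.125 to 0.549 over 45 pairs of groups (over 0.1 in 15). These 15 were all the pairs among LEM, LEL, MAT, EEN, LEN and SEC, whose same-numbered libraries thus deviated together (0.16 to 0.549), a hint from the data. The labels do not say that a number marks a batch. With a replicate block, 51 genes were higher and 17 lower in PEM against TCQ, 10 and 65 in LEE against PEM, 0 and 87 in LEM against LEE, 37 and 42 in MAT against LEM, and 45 and 41 in SEC against the embryo stages.

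With 2 libraries per group, unknown depth and no gene names, the limits are that differences near the lowest listed values carry little precision, that the endosperm spread of single genes is known poorly, and that no function can be assigned.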

Other observations

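Some genes had values that separated the replicates of a group more than the groups. Bradi3g19630.1, chosen after its values were seen, had 2.27 and -4.57 log2 CPM in the LEM libraries, 1.99 and -3.57 in the LEL libraries and 1.45 and -4.57 in the MAT libraries, with replicate 1 given before replicate 2. In Bradi2g01990.1, chosen likewise, the SEC libraries had 7.41 and 4.30 log2 CPM. Libraries of a group were over 1 log2 apart in 3 of the 100 genes in LEN, 12 in EEN, 3 in SEC, 0 in TCQ, PEM and TRA, 1 in LEE, 4 in LEM, 5 in LEL and 4 in MAT.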
